A study of Mus musculus with 6 samples.

Results

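The comparison of severe with moderate hypoxia was described in cultured mouse primary myoblasts, with 1% pO2 set against 4% pO2. Each pO2 had a vehicle library and a PT2385 library, so the difference was taken once in the vehicle pair and once in the PT2385 pair, and the 2 pairs share no library. A gene was counted where log2(FPKM + 1) at 1% minus 4% was at least 1 in size, a 2-fold difference, and had the same sign in both pairs. FPKM is a level scaled to transcript length and to the size of the library, and all differences below are on the log2(FPKM + 1) scale, which understates the change of genes with low levels. By this rule 438 of 11967 genes whose mean over the libraries reached 1 FPKM differed in both pairs, out of 54834 genes listed: 234 were higher at 1% and 204 were lower.

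The cells were myoblasts grown from sorted satellite cells of Pax7-ZSGreen mice, a genotype that all 6 libraries share. They had been kept at 1%, 4% or 20% pO2 for more than 2 weeks and then received 1 uM PT2385, an inhibitor of HIF-2α, or the vehicle, 0.1% DMSO, for 48 h. RNA of 9 cultures from 3 temporal replicates was pooled into 1 library per condition, so there is no replicate spread within a condition. No test was made, and each difference is given in both pairs. A fit that takes the 2 treatments as repeats of each pO2 was not run. Both pairs compare cells kept at the same pair of oxygen levels, so a difference between the adapted cultures themselves cannot be told apart from the effect of pO2. In bulk RNA, fewer cells of a type and less RNA per cell cannot be told apart either. From the steps between low FPKM values, 1 FPKM stood for 44.4 fragments in each 1% library, 46.0 and 39.2 in the vehicle and PT2385 libraries at 4%, and 45.5 and 44.9 at 20%, on 2000 bases of effective length. Intervals for these counts would cover counting error only.

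Oxygen tension reaches transcription along several routes. Hydroxylases that need oxygen mark the HIF-α subunits for degradation, so HIF-1 and HIF-2 accumulate as oxygen falls and switch on glycolytic, angiogenic and pH-regulating genes. Deeper hypoxia also engages the integrated stress response, in which phosphorylated eIF2α favours translation of ATF4, a transcription factor for amino acid supply and stress genes. Sterol synthesis consumes oxygen at several enzymatic steps and is controlled by SREBP-2, the product of Srebf2.

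The labelled cell type was checked first. Myod1, the myogenic determination factor, had 571 and 625 FPKM at 1% pO2, against 501 and 584 FPKM at 4%, with 921 and 951 FPKM at 20% (here and below, the vehicle library is given before the PT2385 library at each pO2). Pax7, the satellite cell factor, had 18.6 and 16.5 FPKM at 1%, against 23.5 and 22.1 FPKM at 4%, with 36.3 and 33.1 FPKM at 20%. Of the 8 myoblast markers, 7 had a mean of at least 1 FPKM. The exception was Myf5, a defining marker, which stayed below 0.5 FPKM in all 6 libraries. Endothelial and Schwann cell markers were near 0: none of the 7 endothelial and none of the 4 glial markers reached a mean of 1 FPKM. Summed leukocyte markers were 20.8 and 22.9 FPKM at 1%, against 93.7 and 103 FPKM at 4%, and most of the 4% sum was Laptm5. Of these markers, 4 of 10 were listed at 0 in every library. Summed markers of differentiating muscle cells were 38.2 and 42.1 FPKM at 1%, against 104 and 64.7 FPKM at 4%, with Acta1 the largest part at 4%. In the PT2385 pair Mymk, Mymx and Ckm went the other way and were higher at 1%. Fibroblast markers summed to 147 and 147 FPKM at 1%, against 89.3 and 90.8 FPKM at 4%, nearly all of it Col3a1. Pericyte or smooth muscle markers summed to 135 and 125 FPKM at 1%, against 87.3 and 68.7 FPKM at 4%. Tenocyte markers summed to 17.7 and 18.2 FPKM at 1%, against 36.2 and 39.6 FPKM at 4%, most of it Scx, a gene of chromosome 15. The part that cells of these other kinds had in the differences below was not tested.

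Hif1a, which encodes HIF-1α, was slightly lower at 1% in both pairs, by 0.46 and 0.35. Its level was 41.3 and 42.2 FPKM at 1%, against 57.2 and 54.2 FPKM at 4%. Epas1, which encodes HIF-2α, the target of PT2385, was at 0.273 FPKM or below in every library, too low for a difference to be detectable at this depth. Fewer genes differed with PT2385 than between 1% and 4%: 96 genes differed 2-fold between PT2385 and vehicle at 1% and 132 at 4%, of which 18 and 27 were protein coding. Between 1% and 4%, 632 genes differed 2-fold in the vehicle pair and 713 in the PT2385 pair, with 511 and 521 protein-coding genes.

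**Figure D1:**
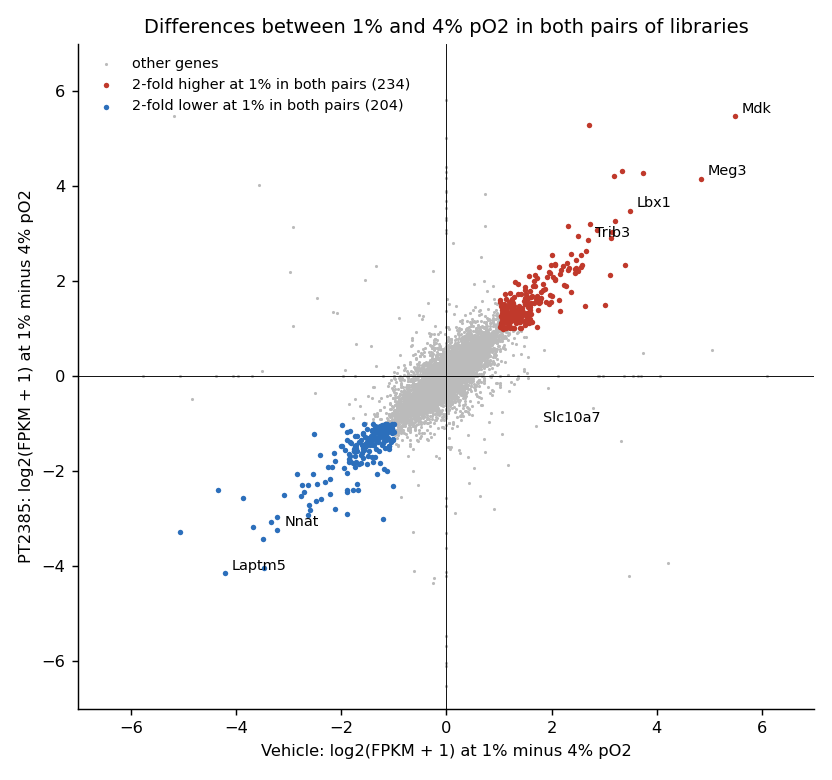
Each point is 1 of the 11967 genes; the horizontal axis is log2(FPKM + 1) at 1% minus 4% pO2 in the vehicle pair and the vertical axis is the same in the PT2385 pair. The 234 genes at least 2-fold higher (red) and 204 at least 2-fold lower (blue) at 1% in both pairs lie in opposite corners of the plot by the rule that chose them, and 1 gene lies beyond the plotted range.

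The pairs ordered the genes alike. In the vehicle pair 331 genes (2.77%) were 2-fold higher at 1% and 301 (2.52%) were 2-fold lower. In the PT2385 pair 371 (3.10%) were higher and 342 (2.86%) were lower. Of the genes 2-fold higher in the vehicle pair, 70.7% were 2-fold higher in the PT2385 pair too, and 63.1% the other way round. For genes that were lower the shares were 67.8% and 59.6%. Both directions together thus left 1.96% of the genes 2-fold higher and 1.70% 2-fold lower in both pairs, and these shares are the background for each gene group below. The groups were chosen with earlier results of these data known, so a share above the background is a description only. With no limit on size, 40.1% of genes were higher at 1% in both pairs and 41.3% were lower. Across all genes the differences in the 2 pairs had a Pearson correlation of 0.68 and a Spearman correlation of 0.78, a description over genes, which are not replicates. The median difference over all genes was -0.0015 in the vehicle pair and -0.0062 in the PT2385 pair.

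Most of the members code for proteins, 204 of the 234 higher genes and 174 of the 204 lower genes. Their levels were moderate: the median mean level was 6.86 FPKM for the higher genes and 5.97 FPKM for the lower genes, against 13.3 FPKM over all genes. Differences of 4-fold or more in both pairs were found for 40 higher and 27 lower genes. At the limit, S100a3 lay just inside with differences of 1.07 and 1.00, and Tpd52 lay just outside with 1.28 and 1.00. On the lower side, Arrdc2 lay just inside with -1.16 and -1.0, and Tcf7 just outside with -1.06 and -1.0.

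The level at 20% pO2 showed that the 2 directions were not mirror images. Among the genes lower at 1%, 143 of 204 were at least 2-fold higher at 4% than at 20% in both treatments, and none was 2-fold lower at 4% than at 20%. By the rule all 143 thus peaked at 4%, and for 113 of them the level at 1% was within 2-fold of 20% in at least 1 treatment. Among the genes higher at 1%, 89 of 234 were at least 2-fold lower at 4% than at 20%, and 14 were at least 2-fold higher. The 89 thus had their lowest level at 4%, and for 73 of them the level at 1% was within 2-fold of 20% in at least 1 treatment. A further 75 genes were at least 2-fold above 20% at 1% in both treatments, but at 4% were within 2-fold of 20% in at least 1 treatment. These comparisons use the same 4% libraries as the main difference, so a gene read high or low at 4% enters both. Over the whole table, 5.62% lay 2-fold above and 2.11% lay 2-fold below 20% at 4% in both treatments.

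**Figure D2:**
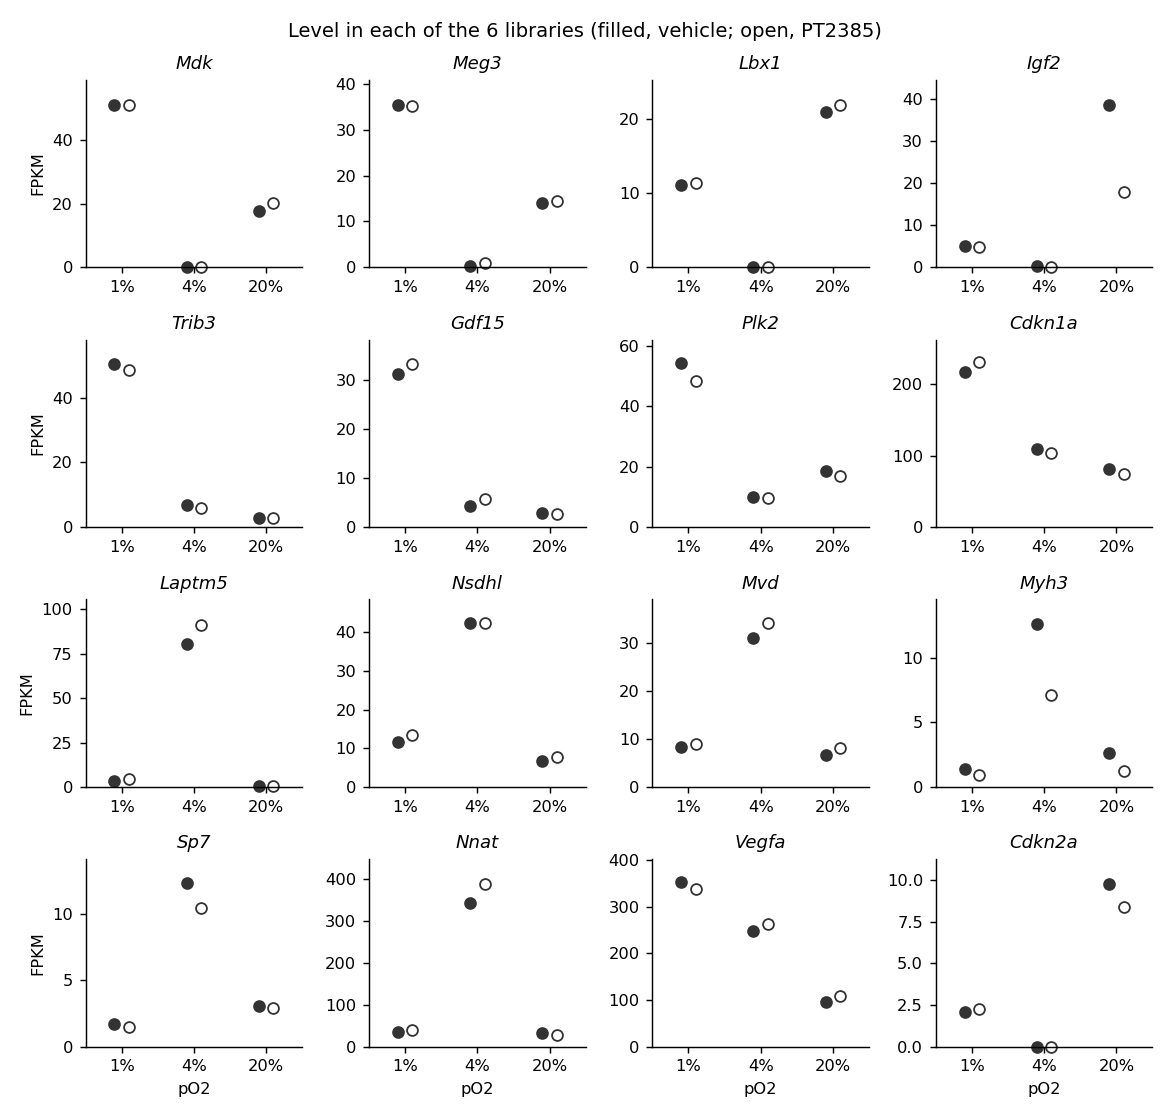
Level in FPKM (vertical axes, from 0) of 16 genes in each of the 6 libraries, ordered by pO2 on the horizontal axes, with vehicle as filled and PT2385 as open circles. Mdk, Meg3, Lbx1, Igf2 and Cdkn2a are at or near 0 at 4% alone, Trib3 and Gdf15 are high at 1% alone, and Laptm5, Nsdhl, Mvd, Sp7 and Nnat are highest at 4%.

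Several of the largest increases belonged to genes whose RNA was nearly missing at 4%. Mdk, which encodes the growth factor midkine (chr2:91929805-91932297, GRCm38), had 50.9 and 51.0 FPKM at 1%, against 0.158 and 0.167 FPKM at 4%, with 17.6 and 20.3 FPKM at 20%. The 4% values correspond to 2 to 3 fragments in each library, against 615 to 1003 at 1%. Its difference was 5.49 and 5.48, the largest in both pairs among the named genes. Lbx1, a homeobox factor of migrating muscle precursors, had 11 and 11.4 FPKM at 1%, against 0.0739 and 0.108 FPKM at 4%, about 4 and 5 fragments. At 20% it had 21.0 and 21.9 FPKM, so its RNA was nearly missing at 4% only. In all, 8 protein-coding genes were under 0.5 FPKM in both 4% libraries and at 3 FPKM or more in the other 4, a pattern picked out after the values were seen. These were Mdk, Lbx1, Igf2, Ripk3, Gpc4, Tceal3, Cacng7 and Rsc1a1. Ripk3, a kinase of necroptosis, had 8.55 and 11.5 FPKM at 1%, against 0.309 and 0.477 FPKM at 4%. Rsc1a1 had 8.30 and 8.68 FPKM at 1%, against 0.00948 and 0 FPKM at 4%, but it lies inside the gene Ddi2 on the same strand, so its value depends on how shared reads were assigned. Ddi2 itself had 24.4 and 23.5 FPKM at 1%, against 30.0 and 27.4 FPKM at 4%.

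Imprinted genes contributed several of these members. Meg3 and Rian, maternally expressed long noncoding RNAs of the Dlk1-Dio3 region on chromosome 12, were both among the 15 named genes with the largest increases. Meg3 had 35.4 and 35.2 FPKM at 1%, against 0.273 and 1.02 FPKM at 4%, with 14.0 and 14.4 FPKM at 20%. Rian had 45.0 and 51.1 FPKM at 1%, against 3.56 and 1.62 FPKM at 4%, with 30.9 and 25.5 FPKM at 20%. Both were thus low at 4% alone. Dlk1, the paternally expressed gene of the same region, followed another order, with 61.3 and 60.7 FPKM at 1%, against 31.7 and 40.6 FPKM at 4%, and 7.60 and 7.62 FPKM at 20%. Igf2, a paternally expressed growth factor, had 5.15 and 4.91 FPKM at 1%, against 0.263 and 0.127 FPKM at 4%, and was highest at 20%, with 38.5 and 17.9 FPKM. Nnat, a paternally expressed proteolipid gene, went the opposite way with 36.0 and 40.5 FPKM at 1%, against 343 and 388 FPKM at 4%, and 33.1 and 27.5 FPKM at 20%. Of the 20 imprinted genes measured, 12 were higher and 8 were lower at 1% in both pairs. Past 2-fold, 4 were higher (Meg3, Rian, Igf2 and Snrpn) and 1 was lower (Nnat), with a median difference of 0.24 and 0.22 over the list.

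Other members with large increases came from several families. Txnip, which binds thioredoxin and restrains glucose uptake, had 124 and 133 FPKM at 1%, against 19 and 20.5 FPKM at 4%, with 7.23 and 6.31 FPKM at 20%, so it was graded over the 3 oxygen levels. Gzmd and Gzme, granzyme genes of chromosome 14, were higher by 2.74 and 3.20 and by 2.36 and 2.57. They are close paralogs, and the share of reads given to each is uncertain. Clip3, which encodes a CAP-Gly linker protein, and Cdh11, a mesenchymal cadherin, were higher by 2.33 and 2.29 and by 2.46 and 2.28, and both were at least as high at 20% as at 1%.

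Genes of the amino acid and stress response directed by ATF4 were higher at 1%. Of 46 measured, 43 were higher in both pairs and 2 were lower, and 17 (37.0%) were at least 2-fold higher, against 1.96% of all genes. The list had a median difference of 0.81 in the vehicle pair and 0.74 in the PT2385 pair, against -0.0015 and -0.0062 over all genes. Trib3, a pseudokinase induced by ATF4 and CHOP, had 50.3 and 48.7 FPKM at 1%, against 6.97 and 5.80 FPKM at 4%, with 2.71 and 2.78 FPKM at 20%. Ddit3, which encodes CHOP, had 55.4 and 53 FPKM at 1%, against 11.7 and 11.1 FPKM at 4%, with 7.36 and 6.17 FPKM at 20%. Gdf15, a stress cytokine, had 31.3 and 33.3 FPKM at 1%, against 4.39 and 5.80 FPKM at 4%, with 2.90 and 2.64 FPKM at 20%. In each of these genes both 1% libraries lay far above the 4 others, and the 4% libraries lay above 20% by a smaller margin.

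Over the whole list 42 of 46 genes had their highest level at 1% in both treatments. The list medians relative to 20% were 0.03 and -0.04 at 4%, with single genes above and below 20%. At 1% the list medians were 0.72 and 0.59 above 20%. Chac1, which degrades glutathione, was higher by 2.06 and 2.03, with 20.3 and 20.8 FPKM at 1%, against 4.11 and 4.34 FPKM at 4%. Asns, asparagine synthetase, had 130 and 122 FPKM at 1%, against 49.3 and 51.6 FPKM at 4%, a difference of 1.38 and 1.22. Of the aminoacyl-tRNA synthetases of the list 10 were measured, with 9 higher in both pairs and none past 2-fold. The symbol Mars1 of the list had no match. Atf4 itself, at 361 and 362 FPKM at 1%, against 297 and 312 FPKM at 4%, was higher by 0.28 and 0.21. Slc38a2, an amino acid transporter gene of chromosome 15, was among the 2 that were lower, by 0.61 and 0.57.

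Some promoters of these genes carry the CARE, a known recognition sequence of ATF4 and its partner C/EBP. It was searched for here as TGATGNAA on both strands of the RefSeq promoters (GRCm38.p6, from 250 bases before to 50 bases after the start). It was found in 8 of 17 promoters of the ATF4-list genes 2-fold higher at 1% (47.1%) and in 15 of 46 promoters of the whole list (32.6%), against 239 of 11340 promoters of all genes tested (2.11%). Promoters were matched for 15 of the 17 genes and for 38 of the 46 genes, and some genes had several. By gene the shares with a CARE were 53.3% and 39.5%, against 2.56% of all genes tested that had a promoter. Among promoters of all genes 2-fold higher at 1% the CARE was in 7.91%, and among those 2-fold lower in 5.81%. The list was drawn up from genes known to respond to ATF4, so the match describes the list rather than the difference. Stretches of 60 bases before the transcription start are shown for 6 of the genes 2-fold higher at 1%, each on the gene's own strand, with 1 CARE match, on either strand, in capitals. The Slc7a11 stretch holds another match, left in lower case.

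Asns, chr6:7693210-7693269, minus strand: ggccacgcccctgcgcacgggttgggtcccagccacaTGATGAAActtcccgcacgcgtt
Atf3, chr1:191183410-191183469, minus strand: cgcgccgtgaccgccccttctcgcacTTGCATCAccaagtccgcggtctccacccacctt
Chac1, chr2:119351023-119351082, plus strand: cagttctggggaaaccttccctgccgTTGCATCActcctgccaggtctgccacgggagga
Herpud1, chr8:94386291-94386350, plus strand: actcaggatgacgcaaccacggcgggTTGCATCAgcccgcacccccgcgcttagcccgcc
Slc7a11, chr3:50443627-50443686, minus strand: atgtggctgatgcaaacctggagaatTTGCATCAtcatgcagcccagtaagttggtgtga
Vldlr, chr19:27216794-27216853, plus strand: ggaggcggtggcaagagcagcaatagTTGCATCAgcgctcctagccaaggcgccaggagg

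The genes shown differed 2-fold or more in both pairs. Atf3, a stress-induced transcription factor, had 7.94 and 8.49 FPKM at 1%, against 1.41 and 2.21 FPKM at 4%, and Slc7a11, the cystine transporter, had 7.97 and 8.56 FPKM at 1%, against 2.76 and 2.86 FPKM at 4%. Herpud1, a membrane protein of endoplasmic reticulum-associated degradation, had 48.7 and 47.8 FPKM at 1%, against 20.8 and 16.5 FPKM at 4%. Chaperones of the endoplasmic reticulum moved less. Of 28 measured, 17 were higher and 9 lower in both pairs, with medians of 0.14 and 0.14, and only Dnajb9, a co-chaperone of BiP, was 2-fold higher, by 1.27 and 1.27. The ERSE, the element of the unfolded protein response, was in 34.8% of the promoters of that list, against 0.123% of all promoters, and in 0.465% of those of the genes 2-fold higher at 1%.

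Cell cycle inhibitors and p53 targets formed the list with the largest median increase, 1.04 and 1.18. Of 31 measured, 29 were higher at 1% in both pairs and 15 (48.4%) were at least 2-fold higher. Cdkn1a, Ddit4, Gdf15 and Sesn2 are also on the ATF4 list; without these 4 the remaining 27 genes had medians of 0.95 and 1.11, with 12 of them 2-fold higher. Pmaip1, which encodes the death-promoting protein NOXA, had 37.6 and 40.5 FPKM at 1%, against 5.84 and 4.32 FPKM at 4%, with 3.45 and 3.04 FPKM at 20%. Plk2, a kinase gene induced by p53, had 54.2 and 48.4 FPKM at 1%, against 10.1 and 9.49 FPKM at 4%, with 18.5 and 16.8 FPKM at 20%. Btg2, an antiproliferative factor, had 32.5 and 32.4 FPKM at 1%, against 8.65 and 9.67 FPKM at 4%, with 6.66 and 5.51 FPKM at 20%. The 1% libraries were the highest in all 3 genes, but the order of 4% and 20% was not the same in Plk2 as in the other two.

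For 15 of the 31 genes the 4% libraries were the lowest of the 3 oxygen levels in both treatments. Ccng1, a p53 target, had 172 and 164 FPKM at 1%, against 60.4 and 56.3 FPKM at 4%, with 118 and 95.8 FPKM at 20%. Phlda3, an inhibitor of AKT, had 135 and 128 FPKM at 1%, against 53.9 and 52.6 FPKM at 4%, with 105 and 99.5 FPKM at 20%. Mdm2, the ubiquitin ligase of p53, had 119 and 116 FPKM at 1%, against 50.2 and 46.5 FPKM at 4%, with 61.2 and 55 FPKM at 20%. Part of the difference between 1% and 4% in these genes was thus a low level at 4%. Trp53 itself differed little, by -0.21 and -0.19. Ccng1, Phlda3 and Mdm2, and the neighbours of Cdkn2a described next, were named after their values were seen.

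Cdkn2a, which encodes the inhibitors INK4A and ARF (chr4:89274471-89294653), was listed at 0 in both 4% libraries. It had 2.08 and 2.24 FPKM at 1%, about 31 to 36 fragments, with 9.75 and 8.38 FPKM at 20%. The adjacent Cdkn2b, which encodes INK4B (chr4:89306299-89311039), was also listed at 0 in both 4% libraries, with 0.472 and 0.366 FPKM at 1%, 13 and 10 fragments, and 2.05 and 2.05 FPKM at 20%. Mtap, a nearby gene of the methionine salvage pathway, was read in all 6 libraries, with 136 and 138 FPKM at 1%, against 115 and 114 FPKM at 4%, and 178 and 172 FPKM at 20%. The noncoding Gm12606, between Mtap and Cdkn2a, had 14.7 and 17.2 FPKM at 1%, against 0.782 and 1.42 FPKM at 4%, and 0.967 and 1.78 FPKM at 20%. At 4% the adjacent Cdkn2a and Cdkn2b were thus listed at 0 and their neighbours were not. A listed 0 is not proof of missing RNA in this table, since the abundant Hnrnpa2b1 was listed at 0 in 2 of the 6 libraries. DNA was not measured, and a change of the locus in the cells kept at 4% was not tested.

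Cholesterol synthesis and uptake genes showed the largest concerted decrease at 1%. Of 26 measured, 25 were lower in both pairs and 17 (65.4%) were at least 2-fold lower, against 1.70% of all genes. The list had medians of -1.46 in the vehicle pair and -1.14 in the PT2385 pair. Mvd, mevalonate diphosphate decarboxylase, had 8.35 and 9.0 FPKM at 1%, against 31.0 and 34.2 FPKM at 4%, with 6.78 and 8.06 FPKM at 20%. Nsdhl, a sterol demethylation enzyme, had 11.7 and 13.6 FPKM at 1%, against 42.3 and 42.3 FPKM at 4%, with 6.69 and 7.71 FPKM at 20%. Fdft1, squalene synthase, had 15.6 and 19.3 FPKM at 1%, against 53.5 and 56.4 FPKM at 4%, with 9.83 and 10.2 FPKM at 20%. Both 4% libraries stood above the 4 others in all 3 genes.

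The decrease was from a peak at 4%. Relative to 20%, the list's median was higher by 2.01 and 2.00 at 4% and by 0.68 and 0.85 at 1%, and for 23 of the 26 genes the order was 4% above 1% above 20% in both treatments. Srebf2, at 61.4 and 63.1 FPKM at 1%, against 177 and 168 FPKM at 4% and 61.1 and 61.7 FPKM at 20%, was close to its 20% level at 1%. Insig2, an inhibitor of SREBP processing and also a HIF target, was the 1 gene of the list that was higher at 1%, by 0.24 and 0.19. Fatty acid synthesis genes followed with smaller differences: 14 of 16 were lower in both pairs, with medians of -0.63 and -0.58. Past 2-fold were Elovl6, Fads2 and Acaca, which lengthen, desaturate and start fatty acid chains and were lower by 1.75 and 1.57, by 1.57 and 1.53 and by 1.37 and 1.28.

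**Figure D3:**
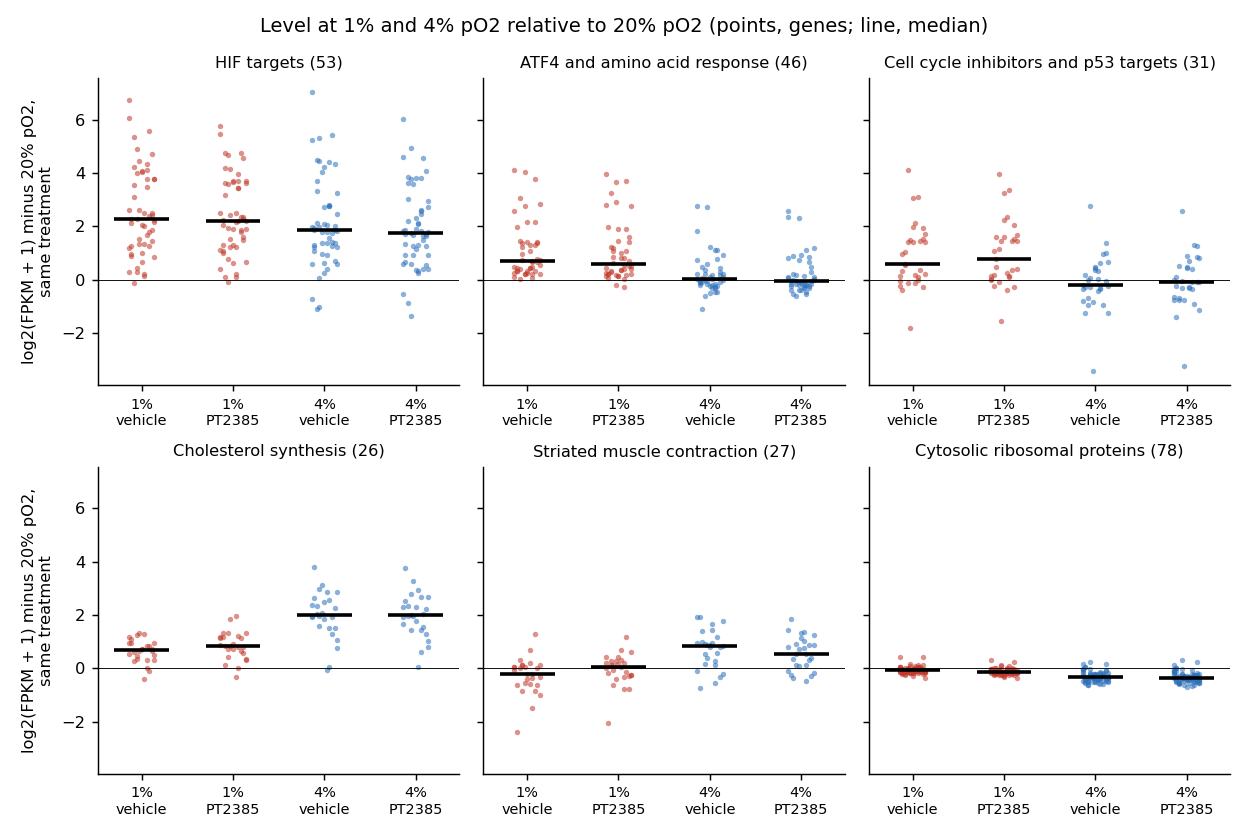
Each point is a gene of the list named above the panel (genes measured in brackets), plotted as log2(FPKM + 1) minus its value at 20% pO2 under the same treatment; black lines are medians, with 1% in red left of 4% in blue. The cholesterol list peaks at 4% (medians 2.01 and 2.00), the ATF4 list is raised at 1% (0.72 and 0.59) and near 0 at 4%, and HIF targets are raised at both.

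HIF targets separated 1% from 4% less than the ATF4, p53 and cholesterol lists did. Of 53 measured, 40 were higher at 1% in both pairs and 11 were lower, with medians of 0.39 and 0.40, and 3 (5.66%) were 2-fold higher: Ddit4, Vldlr and Edn1. In contrast 50 of the 53 lay above 20% at both hypoxic levels in both treatments, and the list's median over 20% was 2.27 and 2.22 at 1%, and 1.86 and 1.76 at 4%. Vegfa, the angiogenic factor, had 353 and 337 FPKM at 1%, against 248 and 262 FPKM at 4%, with 96.1 and 110 FPKM at 20%. Slc2a1, the glucose transporter GLUT1, had 352 and 374 FPKM at 1%, against 178 and 189 FPKM at 4%, with 24.5 and 33.2 FPKM at 20%, and stood just outside the limit with 0.98 and 0.98. In 37 of the 53 genes the order was 1% above 4% above 20% in both treatments.

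Ddit4, which restrains mTORC1 and responds to both HIF and ATF4, had 177 and 186 FPKM at 1%, against 67.5 and 70.3 FPKM at 4%, with 9.14 and 10.9 FPKM at 20%. Vldlr, a lipoprotein receptor, had 18 and 16.4 FPKM at 1%, against 6.63 and 5.76 FPKM at 4%, with 0.146 and 0.360 FPKM at 20%. Both genes are on the ATF4 list too. Edn1, endothelin-1, was low throughout, with 2.31 and 1.65 FPKM at 1%, against 0.217 and 0.102 FPKM at 4%, with 1.47 and 1.80 FPKM at 20%. Pdk1, a HIF target that closes the path of pyruvate into mitochondria, went the other way, at 75.5 and 74.3 FPKM at 1%, against 101 and 89.8 FPKM at 4%, and 1.54 and 1.92 FPKM at 20%. Glycolytic genes had medians of 0.12 and 0.17, with 17 of 28 entries higher in both pairs and none past 2-fold. Aldoa, at 1908 and 2009 FPKM at 1%, had a further entry at 1.46 and 1.26 FPKM, which was counted among the lower. The HRE core, ACGTG or GCGTG, was in 57.7% of the promoters of genes 2-fold higher at 1% and 51.6% of those 2-fold lower, against 63.7% of all promoters and 79.3% of those of the HIF list.

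Early response and NF-κB genes were mostly higher at 1%. Of the 70 genes of the TNF list measured, 53 were higher in both pairs and 12 lower, with medians of 0.49 and 0.44, and 9 (12.9%) were 2-fold higher. Klf2, a transcription factor, had 34.5 and 38.8 FPKM at 1%, against 6.56 and 9.49 FPKM at 4%, with 4.26 and 5.67 FPKM at 20%. Cxcl12, a chemokine for CXCR4-bearing cells, had 58.1 and 43.9 FPKM at 1%, against 18.5 and 13.1 FPKM at 4%, with 49.8 and 44.6 FPKM at 20%. Dusp1, a MAP kinase phosphatase, had 28.9 and 29.8 FPKM at 1%, against 9.02 and 9.98 FPKM at 4%, with 19.2 and 22.3 FPKM at 20%. The last 2 were thus low at 4%, while Klf2 was high at 1%. Atf3 belongs to this list as well.

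Matrix genes differed in a few members. Of 37 genes for collagens and matrix proteins, 24 were higher at 1% in both pairs and 10 lower, with medians of 0.16 and 0.16, and none of the 10 collagen chains measured was past 2-fold. The 4 that were 2-fold higher were Tnc, Ctgf, Fn1 and Cyr61. Tnc, tenascin-C, had 224 and 213 FPKM at 1%, against 66.9 and 65.3 FPKM at 4%, with 32.3 and 38.6 FPKM at 20%. Fn1, fibronectin, had 418 and 448 FPKM at 1%, against 169 and 169 FPKM at 4%, with 102 and 124 FPKM at 20%. Both were graded over the 3 oxygen levels. Ctgf and Cyr61, matricellular genes induced by YAP, had instead their lowest levels at 4%. Mmp9, a gelatinase, had 25.1 and 22.6 FPKM at 1%, against 4.75 and 4.03 FPKM at 4%, with 5.86 and 3.84 FPKM at 20%, and Timp3, a protease inhibitor, was higher by 1.11 and 1.29.

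Contractile genes of striated muscle were lower at 1%. Of 27 measured, 22 were lower in both pairs and 6 (22.2%) were 2-fold lower, with medians of -0.97 in the vehicle pair and -0.59 in the PT2385 pair. Myh3, the embryonic myosin heavy chain, had 1.35 and 0.943 FPKM at 1%, against 12.6 and 7.07 FPKM at 4%, with 2.60 and 1.21 FPKM at 20%. Tnnt1, slow troponin T, had 34.3 and 28 FPKM at 1%, against 108 and 101 FPKM at 4%, with 182 and 119 FPKM at 20%. Acta1, skeletal actin, had 9.38 and 9.73 FPKM at 1%, against 40.2 and 20.9 FPKM at 4%, with 9.71 and 7.07 FPKM at 20%. In 19 of the 27 genes 4% was the highest oxygen level in both treatments, though not in Tnnt1. Myog, the factor that starts differentiation, was lower at 1% by 0.77 and 0.33. The list shares Myh3, Acta1 and other genes with the markers of differentiating cells given above, and a different share of differentiating cells at 4% was not tested.

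**Figure D4:**
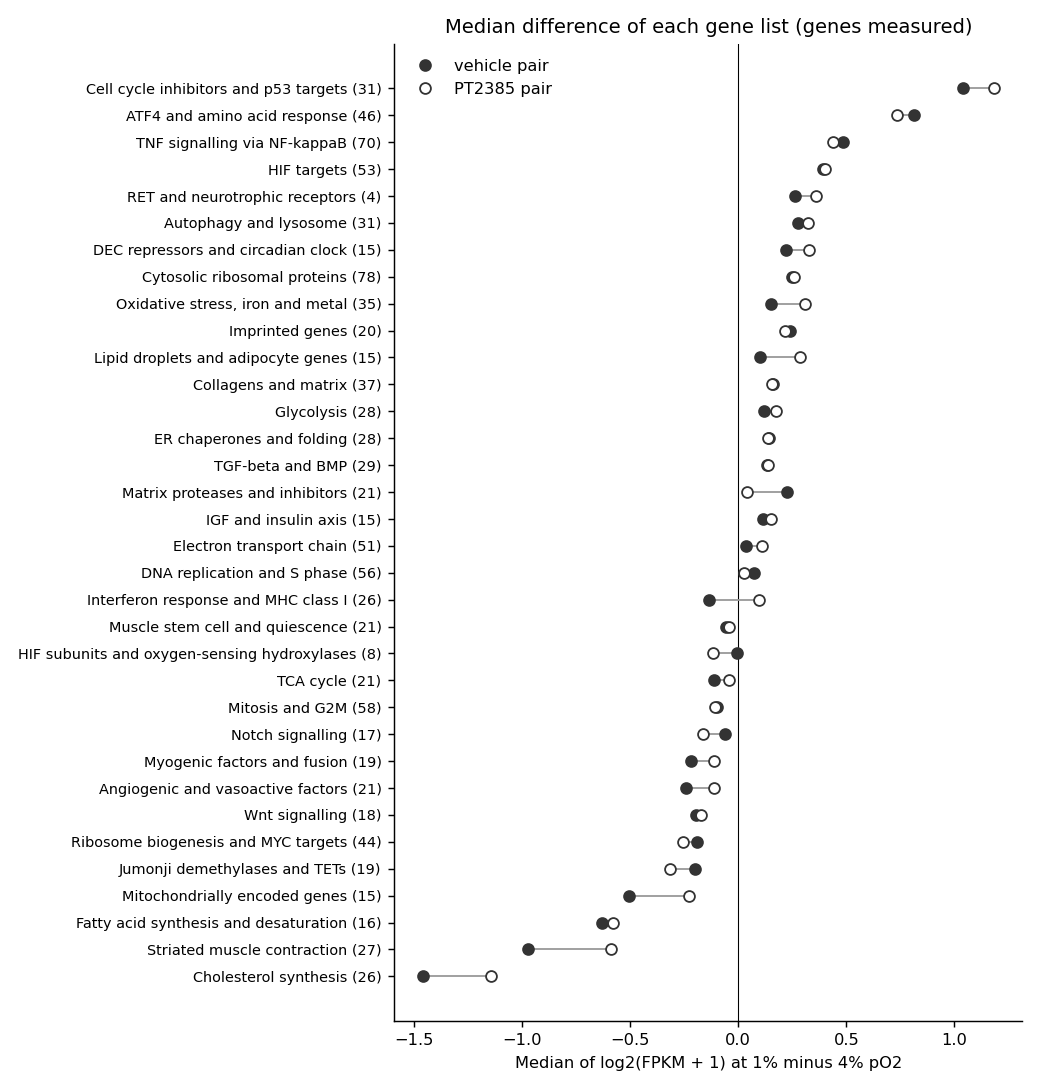
Median of log2(FPKM + 1) at 1% minus 4% pO2 over the genes of each of 34 lists (number measured in brackets), in the vehicle pair (filled) and the PT2385 pair (open), with a line joining the pairs. Medians run between -1.46 for cholesterol synthesis and 1.18 for cell cycle inhibitors and p53 targets, and the pairs have opposite signs only for the interferon list.

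Lists with small and regular differences included the ribosome. Of the 78 cytosolic ribosomal protein genes 70 were higher at 1% in both pairs, with medians of 0.25 and 0.26, and none was past 2-fold. In 69 of them the 4% libraries were the lowest of the 3 oxygen levels in both treatments. Genes of ribosome biogenesis and MYC targets leaned the other way, with 25 of 44 lower in both pairs and medians of -0.19 and -0.26. Mitosis genes, 58 in all, were lower in 36 cases and higher in 17, the median being -0.10 and -0.11. Mki67, the proliferation antigen, had 64.7 and 57.3 FPKM at 1%, against 88.3 and 81.2 FPKM at 4%, with 66.1 and 55.7 FPKM at 20%, so its peak was at 4%. It does not stand for the list, since most mitosis genes were lower at 4% than at 20% in each treatment.

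Genes of the mitochondrial genome were lower at 1%, 11 of 15 in both pairs, with medians of -0.50 and -0.23. mt-Nd4l, a subunit of complex I, was 2-fold lower, with 4.26 and 4.96 FPKM at 1%, against 13.7 and 14.9 FPKM at 4%, and 13.7 and 11.6 FPKM at 20%. It was the only gene of the list past 2-fold, at a level far below that of mt-Co1, which had 4999 and 5046 FPKM at 1%. The share of reads given to each mitochondrial gene is uncertain, so the mt-Nd4l difference may not stand for its transcript. In contrast mt-Nd4, also of complex I and named after its values were seen, was read at far higher levels. It had 714 and 789 FPKM at 1%, against 889 and 787 FPKM at 4%, a difference of -0.32 and 0.003. The nuclear genes of the electron transport chain had medians of 0.03 and 0.11, and 25 of 51 were higher in both pairs. Autophagy and lysosome genes were mostly higher, 24 of 31 in both pairs, with medians of 0.28 and 0.32. Jumonji demethylases and TET enzymes, which use oxygen, were mostly lower, 13 of 19 in both pairs, with medians of -0.20 and -0.31, and none of these last 2 lists' genes was past 2-fold.

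Other genes stood highest at 4%. Laptm5, a lysosomal membrane protein mostly known from blood cells, had 3.40 and 4.21 FPKM at 1%, against 80.7 and 91.5 FPKM at 4%, with 0.535 and 0.465 FPKM at 20%, the largest decrease among the named genes. Other defining leukocyte markers did not follow it: Ptprc and Tyrobp had no mean of 1 FPKM, and Cd68 was at 13.5 and 14.6 FPKM at 1%, against 10.4 and 9.88 FPKM at 4%. Ifitm1, an interferon-inducible membrane protein, had 7.34 and 8.79 FPKM at 1%, against 76.7 and 75.4 FPKM at 4%, with 0.234 and 0.113 FPKM at 20%. Selp, P-selectin, had 29.8 and 26.8 FPKM at 1%, against 161 and 166 FPKM at 4%, with 4.70 and 6.04 FPKM at 20%. All 3 were raised over 20% at both hypoxic levels but far more at 4%.

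Igf2bp3, an RNA-binding protein of embryonic tissue, was lower at 1% by 2.64 and 2.91, and Gata4, a transcription factor of heart and endoderm, by 1.90 and 2.39. Arhgdib had 37.5 and 48.6 FPKM at 1%, against 167 and 169 FPKM at 4%, with 35.7 and 39.2 FPKM at 20%. In 9 protein-coding genes, picked out after the values were seen, both 4% libraries had 3 FPKM or more and the other 4 were under 0.5 FPKM. They include the transcription factors Pax6 and Runx3 and the keratin Krt8. Pax6 had 0.164 and 0.444 FPKM at 1%, against 8.94 and 7.16 FPKM at 4%. Krt8 was at 0 and 0.0999 FPKM at 1%, against 9.14 and 8.20 FPKM at 4%, about 376 and 288 fragments, and was listed at 0 in both 20% libraries.

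Genes of chromosome 15 were lower at 1% as a whole. The 475 genes of chromosome 15 had a median difference of -0.38 in the vehicle pair and -0.38 in the PT2385 pair, while the medians of the other autosomes and X lay between -0.03 and 0.05 and between -0.02 and 0.06. In both pairs 76.2% of the genes of chromosome 15 were lower at 1%, against 35.6% to 45.3% on the other autosomes and X. Past 2-fold, 38 of its genes (8.0%) were lower and 5 were higher. These 38 make up 18.6% of the 204 lower genes, whereas chromosome 15 holds 3.97% of the genes tested. The shift was from a raised level at 4%: relative to 20% the median of chromosome 15 was 0.37 and 0.32 at 4%, and -0.01 and -0.04 at 1%. Among its 291 genes averaging 10 FPKM or more the median difference was -0.39 and -0.42, a level at 1% of 0.762 and 0.746 times that at 4%.

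The shift ran along the whole chromosome. In 4 consecutive groups of 118 or 119 genes, in order from its start, the medians were -0.29 and -0.24, -0.35 and -0.38, -0.43 and -0.47, and -0.47 and -0.45. Members on chromosome 15 were Sp7, an osteoblast transcription factor, with 1.70 and 1.46 FPKM at 1%, against 12.3 and 10.5 FPKM at 4%, and 3.09 and 2.90 FPKM at 20%, and H1f0, a linker histone, with 33.5 and 36.7 FPKM at 1%, against 160 and 168 FPKM at 4%, and 86.8 and 79.5 FPKM at 20%. Krt8, Pdgfb and Scx, named after their chromosome was seen, lie there too, as do Srebf2 and Sqle of the cholesterol list. In 37 of the 38 lower genes 4% was the highest oxygen level in both treatments. This was not particular to the chromosome: of all 204 lower genes, 20% was the highest level in only 6 with vehicle and 5 with PT2385. The cholesterol list was not lost without the chromosome: of its 24 genes on other chromosomes 15 were 2-fold lower, with medians of -1.46 and -1.09. Without chromosome 15 the counts were 229 higher and 166 lower genes. The number of copies of chromosome 15 in the cells was not measured, and its part in these values was not tested.

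**Figure D5:**
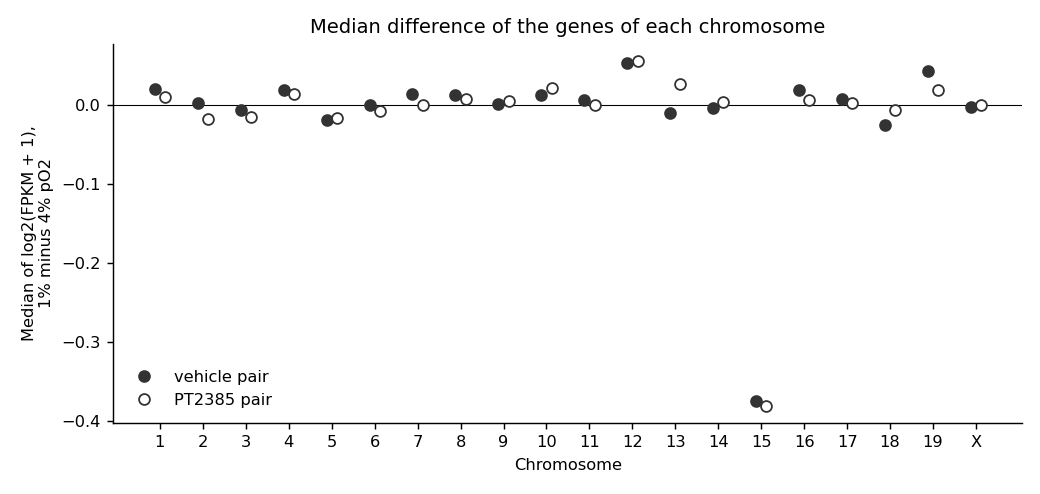
Median of log2(FPKM + 1) at 1% minus 4% pO2 over the genes of each autosome and X, in the vehicle pair (filled) and the PT2385 pair (open). Chromosome 15 lies at -0.38 in both pairs and the others lie between -0.03 and 0.06.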

How the data were processed

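RNA-seq of 6 libraries, 1 per condition, was analysed from the table the authors deposited, which gives 1 value per gene and library. The deposited values were taken as FPKM from their range and from the length-dependent steps of low values; the file does not state its unit. The authors pooled RNA of 9 cultures per condition. The supplementary methods name TopHat2 for mapping to GRCm38, whereas the submitters' processing notes list HISAT2 2.1.0, SAMtools 1.3.1, Cufflinks and Cuffdiff 2.2.1. Strand use in counting is not given in the sources used here. Gene types and positions came from GENCODE M21, which held 54805 of the 54834 identifiers.

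Values were put on log2(FPKM + 1) without further scaling, and genes averaging 1 FPKM or more were kept. Differences were 1% minus 4% pO2 within vehicle and within PT2385. With 1 library per condition no p-value was computed, and lists are described by counts and medians beside those of all genes. The members and the gene lists were chosen with earlier results of these data known. Named genes were the 15 highest and 15 lowest by the smaller of both differences (mean of at least 5 FPKM, without predicted genes, pseudogenes and small RNAs), up to 4 per list in the direction of its median, a fixed set of 10 regulators, markers and the genes at the limit. Asns, Atf4, Slc38a2, Herpud1, Srebf2, Insig2, Pdk1, Dlk1 and the genes near Cdkn2a were added after their values were seen. Some genes that the rule picked are not reported here. Fragments per library were estimated from the steps of genes with 1 transcript. Motifs were searched in RefSeq promoters, which matched 8852 of 11960 symbols. The alternatives were another pseudocount, filter, fold limit and scaling, each pair alone, protein-coding genes only, no genes listed at 0, and no chromosome 15. Functions were tested on simulated data. Python 3.11.15, pandas 2.3.3, numpy 2.4.6 and matplotlib 3.10.9 were used.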

Additional observations from a re-analysis of the deposited data

Results flagged for a closer look

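The 2 pairs disagreed past 2-fold for 16 genes, which were 2-fold higher at 1% in one pair and 2-fold lower in the other. Of these 15 were small RNAs or processed pseudogenes. The 1 protein-coding gene, Slc10a7, had a difference of 1.71 in the vehicle pair and -1.04 in the PT2385 pair, with 31.2 and 30.0 FPKM at 1%, against 8.87 and 62.8 FPKM at 4%, and 33.7 and 35.3 FPKM at 20%. The 2 values that stood apart were thus those at 4%.

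The median of the interferon and MHC class I list was -0.14 in the vehicle pair and 0.094 in the PT2385 pair. These differences between the pairs were not tested, since each pair is 1 library against 1 library.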

How the results depend on the processing

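With a pseudocount of 0.1 in place of 1, 365 genes were 2-fold higher at 1% and 318 lower in both pairs. With a mean of at least 5 FPKM the counts were 141 and 116, with a 1.5-fold limit 642 and 692, and with the PT2385 pair alone 371 and 342. No filter, median-ratio scaling, the vehicle pair alone, protein-coding genes only, leaving out genes listed at 0 in a hypoxic library, and leaving out chromosome 15, which was chosen after seeing the data, kept both counts within 1.5 times. Over the alternatives tried the median of the angiogenic list (-0.18) turned positive without chromosome 15 (0.20), with a mean of at least 5 FPKM (0.30) and with no filter (0.01), and 7 list medians and 8 single-gene differences changed sign in all. With a pseudocount of 0.1, 78 of 181 single-gene differences moved by more than the spread between the pairs, and with no filter 16 of 34 list medians did. No list named above as higher or lower by a median over 0.3 in size in both pairs changed sign. The differences are paired within treatment, and each pair alone stands in for leaving out the other. A fit with treatment as a block was not run. Levels under about 0.5 FPKM rest on few fragments.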

Other observations

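Adipocyte genes were read mainly in 1 library. Fabp4, a fatty acid carrier of adipocytes, had 1.05 and 17.3 FPKM at 1%, against 0.237 and 0.276 FPKM at 4%, with 0.303 and 0.664 FPKM at 20%. Cidec, a lipid droplet protein, had 0.0866 and 5.97 FPKM at 1% and was listed at 0 in both 4% libraries. The high values came from the PT2385 library at 1%, where Adipoq also had 1.47 FPKM, against 0.04 FPKM or less in the other 5 libraries.

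Hnrnpa2b1, an abundant RNA-binding protein gene, was listed at 0 in the vehicle library at 1% and in the PT2385 library at 20%, with 581 to 829 FPKM in the other 4, so a listed 0 need not mean that the RNA was absent.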
